A study of Mus musculus with 6 samples.

Results

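The RAS genes Hras and Nras and 7 genes of the RASSF family (Rassf1, Rassf2, Rassf3, Rassf4, Rassf5, Rassf7 and Rassf8) were examined in the rostral-most telencephalic primordium of mouse embryos at E11.5. They were chosen by gene name, and these 9 genes were found among 55471 gene identifiers. Read counts came from 3 control and 3 Rx-Dicer samples, and the comparison asks how RNA levels differ when Dicer, the enzyme that releases mature miRNAs from their precursors, is deleted early in the forebrain. Control embryos, labelled WT, carried the floxed Dicer allele (DicerF/F) and no Cre. Rx-Dicer embryos (Rx-Cre;DicerF/F) carried the same floxed allele together with Cre recombinase under regulatory sequences of the Rx gene, which is active in the anterior neural plate. Cre activity under Rx is strongest rostrally and ventrally at this age, so that a dissected sample can hold cells with and without the deletion. The Rx-Cre line was kept on a CD1 background and the floxed allele in C57BL/6, and embryos of either sex were used. The sources do not say whether a library held tissue of 1 embryo or of several, so the p-values below measure the spread between these samples, which may in part be technical.

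RAS proteins are small GTPases of the inner cell membrane that switch between a GDP-bound and an active GTP-bound state. Exchange factors such as the SOS proteins load them with GTP, GTPase-activating proteins such as neurofibromin switch them off, and active RAS starts the RAF-MEK-ERK kinase cascade below growth factor receptors. RASSF proteins carry a RAS association domain but no enzymatic activity. In Rassf1 to Rassf6 it lies near the C-terminus beside a SARAH domain, through which they can bind the kinases that head the Hippo pathway, whereas Rassf7 to Rassf10 carry it at the N-terminus and lack the SARAH domain. RAS genes are a textbook target of let-7, a miRNA family whose members share a seed, the bases that pair with target RNA.

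The seeds of let-7 and miR-9 are shown because they sort the genes into groups with and without matching 3′ UTR letters. Mature sequences are from RefSeq (GRCm38.p6), with the seed (bases 2 to 8) in capitals. The sequence of let-7a-5p, whose seed is shared by 11 mature miRNA names in that table, was read from chromosome 13, and miR-9-5p, a miRNA of neural progenitors, is identical at its 3 loci on chromosomes 3, 7 and 13.
let-7a-5p: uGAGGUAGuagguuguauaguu
miR-9-5p: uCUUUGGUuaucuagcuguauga

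For each gene the longest annotated 3′ UTR (GENCODE M21 transcripts, GRCm38) was searched on the transcript strand for 2 overlapping 7-letter words per seed, the complement of bases 2 to 8 and the complement of bases 2 to 7 followed by A. These words were CTACCTC and TACCTCA for let-7, and ACCAAAG and CCAAAGA for miR-9, and the 8-letter words CTACCTCA and ACCAAAGA contain both. Among 14053 genes tested that have a 3′ UTR, 17.3% held a let-7 word and 23.3% a miR-9 word. Of the 9 genes, Nras, Rassf7 and Rassf8 held a let-7 word, Rassf2, Rassf3, Rassf4 and Rassf5 held a miR-9 word, and Hras and Rassf1 held neither. The searched 3′ UTRs of the miR-9 group were 2294 to 6969 bases long, beside a median of 1216 over the genes tested. A longer sequence can hold more words. The windows below are from the let-7 group and from the 2 genes with the 8-letter miR-9 word, which 4.74% of the genes held, and the matching letters are in capitals.
Nras, chr3:103064363-103064391, plus strand: cttcagaataaCTACCTCctcactcggct
Nras, chr3:103066921-103066949, plus strand: aaggtctgcttTACCTCAaagttgcagag
Rassf7, chr7:141218583-141218611, plus strand: tgcctgctatgTACCTCActgtatgtgtg
Rassf8, chr6:145819850-145819878, plus strand: ccacagtgggtTACCTCActttgtgtgtt
Rassf3, chr10:121412200-121412228, minus strand: tggggtcagagCCAAAGAgccaggagcta
Rassf3, chr10:121411543-121411572, minus strand: tgttccttccaACCAAAGAgacgcatgtgc
Rassf3, chr10:121410623-121410651, minus strand: agccccagaggCCAAAGAgatatatatat
Rassf5, chr1:131177782-131177811, minus strand: tatgggtttctACCAAAGAgaaaccagcca

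A match of this kind describes letters only. The 3 Rassf3 words lie at positions 719, 1375 and 2296 of a 2586-base 3′ UTR, and the Nras words at positions 187 and 2745 of 3727 bases. Rassf5 held, besides its 8-letter word at position 904 of 2294 bases, a CCAAAGA word at position 802 whose window is not shown. Rassf2 and Rassf4, whose windows are also not shown, each held 1 ACCAAAG and 1 CCAAAGA word.

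The libraries held 34471501 to 48373468 counts on genes. Dicer1 itself did not separate the genotypes, at 6355, 7070 and 6270 normalised counts in control samples 1 to 3 and 4777, 7002 and 4644 in Rx-Dicer samples 1 to 3 (log2 fold change -0.26 ± 0.17 SE, DESeq2 adjusted p = 0.567), and the library labelled Rx-Dicer 2 lay within the control range. Counts over the whole gene do not show whether the floxed part was deleted, so these values are no check of the deletion. All 7 markers of telencephalic neuroepithelium were detected in every library, with summed levels of 146294 to 154922 normalised counts in control and 133652 to 153643 in Rx-Dicer samples. Pax6, 1 of these 7, was called lower (log2 fold change -0.43 ± 0.12 SE, DESeq2 adjusted p = 0.0127). The 5 markers of the optic and hypothalamic field summed to 190 to 296 in control and 967 to 2054 in Rx-Dicer samples without overlap, mostly through Nkx2-1, while Six6 of this list was at 0 in at least 1 library. The 6 microglia and macrophage markers summed to 1001 to 1150 in control samples and to 3748, 1125 and 2346 in Rx-Dicer samples 1 to 3, and Csf1r and Cx3cr1 were called higher. Summed blood markers ranged from 346432 to 970826 across all 6 libraries. The part of these differences in the results below was not tested unless a value is given. In bulk tissue, fewer cells of a type and less RNA per cell cannot be told apart.

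Of the 9 genes, 1 was called, Rassf3, which rose in the Rx-Dicer samples. Genes were called at a DESeq2 adjusted p under 0.05 together with an absolute log2 fold change over 0.32, a rule met by 2.93% of the 17128 genes tested, with 1.75% of the genes tested called higher and 1.18% lower. All 9 genes passed the filter on low values. The Rx-Dicer values lay entirely above the control values for Rassf3, as for 8.55% of the genes tested, and entirely below them for Hras and Rassf7, as for 10.7% of the genes tested. Hras, Rassf3 and Rassf7, 3 of the 9, had an unadjusted p under 0.05, against 13.1% of the genes tested, and the same 3 had such a p with edgeR's quasi-likelihood test, against 12.9% of its genes, though edgeR called none of the 9 after adjustment. The median log2 fold change of the 9 genes was 0.06, beside -0.00087 over all genes tested.

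**Figure D1:**
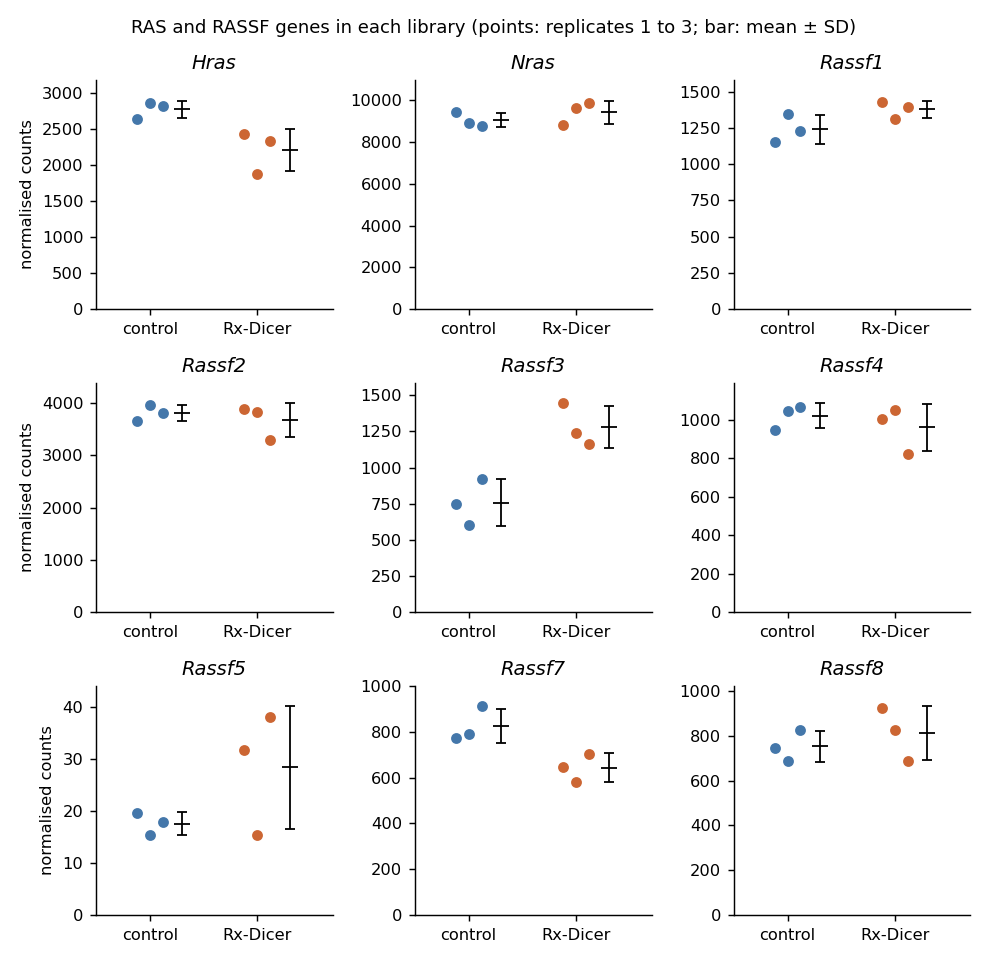
Normalised counts (vertical axes, each from 0) of the 9 genes in the 3 control and 3 Rx-Dicer libraries, with 1 point per library and the mean ± SD beside them. The Rx-Dicer points lie above all control points for Rassf3 and below all of them for Hras and Rassf7, and the groups overlap in the other 6 panels.

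Levels of different genes were compared on the FPKM scale, as counts divided by exon length and by the library's total counts on genes. In the control samples Nras was highest at 40.0 ± 1.8 (SD, n = 3) FPKM, followed by Hras at 17.5 ± 0.65. The RASSF genes came below both, led by Rassf7 at 9.04 ± 0.92 and Rassf2 at 7.48 ± 0.20. Rassf1 (5.0 ± 0.32) and Rassf3 (4.67 ± 1.06) overlapped, so that their order was not resolved, while every other pair of neighbours in the order was separate in the 3 control libraries. Rassf8 (3.19 ± 0.35) and Rassf4 (2.61 ± 0.16) were lower, and Rassf5 was close to the limit of these libraries at 0.104 ± 0.014, from 15 to 19 reads per control library. In the Rx-Dicer samples Rassf3 stood at 7.99 ± 1.07, beside 7.32 ± 0.87 for Rassf2 and 7.12 ± 0.45 for Rassf7, ranges that overlapped.

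**Figure D2:**
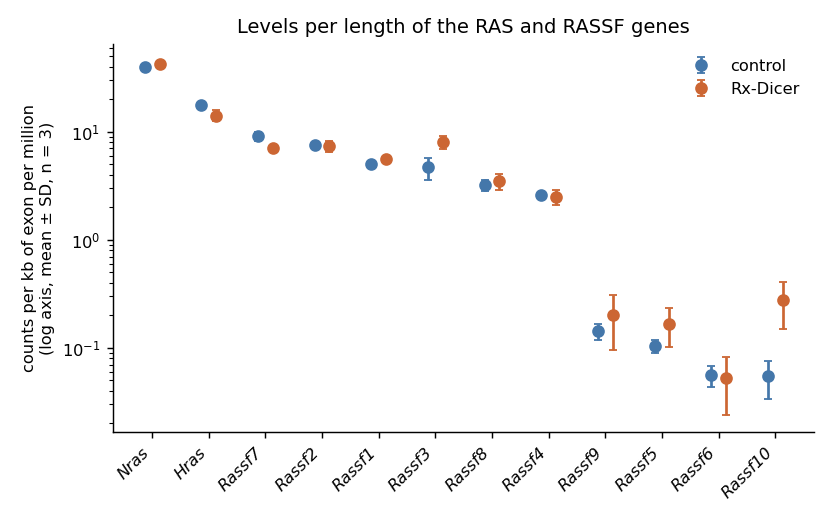
Mean level per gene on the FPKM scale, counts per exon length and library total (vertical log axis, error bars SD, n = 3 per genotype) for the 9 genes and for Rassf6, Rassf9 and Rassf10. Nras and Hras stand highest, Rassf5 stands near 0.1 in control samples, and Rassf3 stands at 4.67 in control and 7.99 in Rx-Dicer samples.

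Hras (ENSMUSG00000025499, GRCm38 chromosome 7, 141189105 to 141194005, minus strand) encodes 1 of the classic RAS GTPases. It had 2631, 2863 and 2812 normalised counts in control samples 1 to 3 and 2423, 1878 and 2325 in Rx-Dicer samples 1 to 3. All Rx-Dicer values were lower than all control values, and Rx-Dicer 2 was the lowest. The log2 fold change was -0.33 ± 0.14 (SE) with an unadjusted p of 0.0165 and a DESeq2 adjusted p of 0.211, so Hras was not called. Its 95% interval, from -0.59 to -0.06, lay below 0 before adjustment for the number of genes. Without Rx-Dicer 2 the log2 difference was -0.22.

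Nras (ENSMUSG00000027852, chromosome 3, 103058285 to 103067914, plus strand), the RAS gene with a pair of let-7 words in its 3′ UTR, had 9417, 8920 and 8785 normalised counts in control and 8811, 9629 and 9857 in Rx-Dicer samples. The groups overlapped, with Rx-Dicer 1 inside the control range, and the log2 fold change was 0.06 ± 0.11 (SE, DESeq2 adjusted p = 0.922). The 95% interval ran from -0.15 to 0.27, a change of at most 1.21-fold upwards, the narrowest interval among the 9 genes.

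Rassf3 (ENSMUSG00000025795, chromosome 10, 121410350 to 121476347, minus strand) belongs to the SARAH-domain branch and has been linked to Mdm2 and p53. It had 746, 602 and 922 normalised counts in control samples 1 to 3 and 1443, 1236 and 1160 in Rx-Dicer samples 1 to 3. The lowest Rx-Dicer value was above the highest control value, and the means were 757 ± 161 (SD, n = 3) and 1280 ± 147 (SD, n = 3). The log2 fold change was 0.76 ± 0.18 (SE), a 1.69-fold rise with a 95% interval of 1.32 to 2.16, at a DESeq2 adjusted p of 0.00291. With edgeR's quasi-likelihood test the log2 fold change was 0.76, the unadjusted p 0.00206 and the adjusted p 0.166, so that Rassf3 was not called by a test that called 0.0446% of its genes. The DESeq2 call held when each of the 6 samples was left out in turn (log2 fold change 0.62 to 0.93). It also held with only the first or only the second file of each sample, at 0.73 and 0.79. Rx-Dicer 1, the library with the highest Rassf3 and the highest microglial marker sum, changed the log2 difference to 0.66 when left out (adjusted p = 0.0397). The optic and hypothalamic markers moved with genotype as Rassf3 did. The part of either marker list in the difference was not tested. Rassf3 overlaps the unnamed gene model Gm48591 on its strand, and reads over both were counted for neither.

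**Figure D3:**
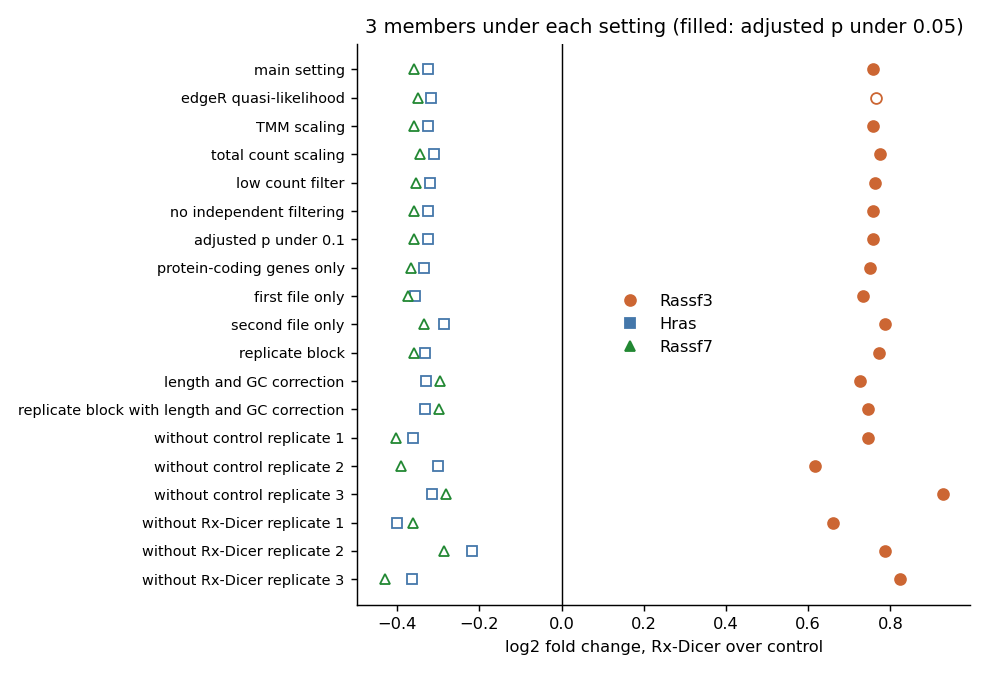
Log2 fold change (horizontal axis, Rx-Dicer over control) of Rassf3, Hras and Rassf7 in the main setting and 18 alternatives (rows), filled where the adjusted p was under 0.05. Rassf3 lies between 0.62 and 0.93 and is open in the edgeR row only, whereas Hras (-0.40 to -0.22) and Rassf7 (-0.43 to -0.28) lie below 0 and are open in every row.

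Rassf1 (ENSMUSG00000010067, chromosome 9, 107551555 to 107562267, plus strand), the best known tumour suppressor of the family and a binder of microtubules and Hippo kinases, had 1149, 1345 and 1228 normalised counts in control and 1430, 1310 and 1392 in Rx-Dicer samples. The groups overlapped through control 2 and Rx-Dicer 2, with a log2 fold change of 0.15 ± 0.13 (SE, DESeq2 adjusted p = 0.739, 95% interval -0.10 to 0.40).

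Rassf2 (ENSMUSG00000027339, chromosome 2, 131989415 to 132030258, minus strand), a family member that binds and stabilises Hippo kinases, had 3662, 3961 and 3805 normalised counts in control and 3885, 3829 and 3300 in Rx-Dicer samples. Rx-Dicer 3 was the lowest library and the others overlapped, with a log2 fold change of -0.05 ± 0.12 (SE, DESeq2 adjusted p = 0.947, 95% interval -0.29 to 0.18). Rassf4 (ENSMUSG00000042129, chromosome 6, 116633008 to 116673952, minus strand), a less studied gene of the same branch, had 947, 1049 and 1067 in control and 1005, 1053 and 825 in Rx-Dicer samples. Its lowest value was again in Rx-Dicer 3, the library in which the 5 endothelial markers summed to 3139 normalised counts, against 5515 to 7327 in the other 5 libraries. The log2 fold change of Rassf4 was -0.09 ± 0.15 (SE, DESeq2 adjusted p = 0.917, 95% interval -0.38 to 0.20). Without Rx-Dicer 3 the log2 differences were 0.018 for Rassf2 and 0.010 for Rassf4.

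Rassf5 (ENSMUSG00000026430, chromosome 1, 131176410 to 131245258, minus strand), also known as NORE1 or RAPL and prominent in lymphocyte adhesion, had 19.5, 15.3 and 17.8 normalised counts in control and 31.7, 15.3 and 38.0 in Rx-Dicer samples. Rx-Dicer 1 and 3 were above every control library and Rx-Dicer 2 was at the level of the lowest control. The microglial marker sum had the same split, with Rx-Dicer 1 and 3 above every control library and Rx-Dicer 2 within the control range, and its part in the Rassf5 values was not tested. The log2 fold change was 0.70 ± 0.56 (SE, DESeq2 adjusted p = 0.706), and its 95% interval from -0.39 to 1.79 shows that a change of the size seen for Rassf3 was not detectable at 15 to 40 reads per library.

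Rassf7 (ENSMUSG00000038618, chromosome 7, 141215860 to 141218658, plus strand), an N-terminal RASSF linked to spindle formation and neural tube division in frogs, had 776, 790 and 912 normalised counts in control and 646, 582 and 705 in Rx-Dicer samples. All Rx-Dicer values were lower than all control values. The log2 fold change was -0.36 ± 0.15 (SE) with an unadjusted p of 0.0164, a DESeq2 adjusted p of 0.210 and a 95% interval of -0.65 to -0.07, so that Rassf7 was not called. Rassf8 (ENSMUSG00000030259, chromosome 6, 145746748 to 145821079, plus strand), an N-terminal RASSF found at cell junctions, had 744, 686 and 828 normalised counts in control and 924, 827 and 686 in Rx-Dicer samples. The groups overlapped fully, and the log2 fold change was 0.11 ± 0.16 (SE, DESeq2 adjusted p = 0.896, 95% interval -0.21 to 0.43). It was 0.0054 without Rx-Dicer 1 and 0.22 without Rx-Dicer 3.

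**Figure D4:**
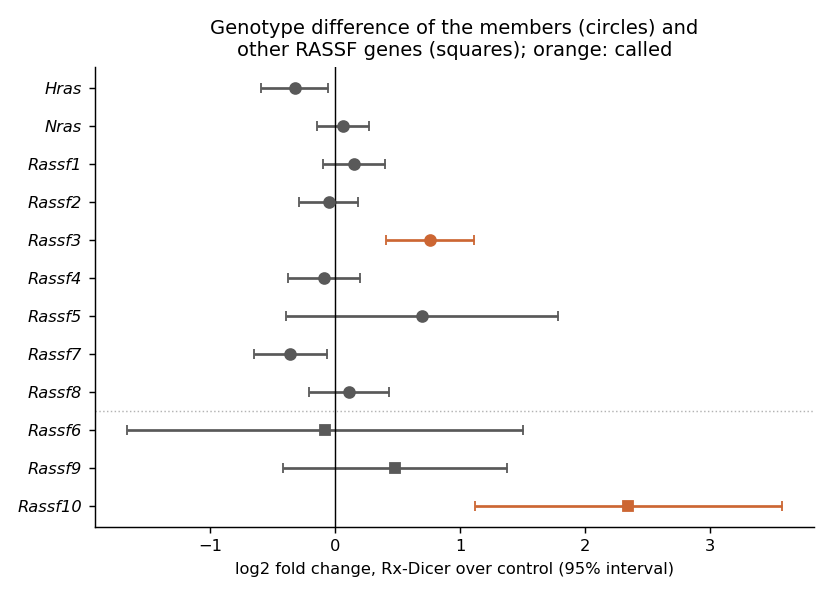
Log2 fold change (horizontal axis, Rx-Dicer over control) with its 95% interval for the 9 genes (circles) and the 3 other RASSF genes (squares), with called genes in orange. The intervals of Rassf3 (0.41 to 1.11) and Rassf10 (1.1 to 3.6) lie above 0 and those of Hras and Rassf7 below it, and the widest among the 9 genes is that of Rassf5. Rassf10 passed the filter on low values only through its Rx-Dicer group.

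Set beside the 3′ UTR words, the genes with a let-7 word had log2 fold changes of 0.06 (Nras), -0.36 (Rassf7) and 0.11 (Rassf8), none of them called. Those with a miR-9 word had -0.05 (Rassf2), 0.76 (Rassf3), -0.09 (Rassf4) and 0.70 (Rassf5), with Rassf3 called. The Rassf5 difference was within its error. Hras and Rassf1, without a word, were at -0.33 and 0.15. Whether any of these differences depends on the words was not tested.

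Hras and Rassf7, both lower in every Rx-Dicer library, are neighbours on chromosome 7 with 21855 bases between them, and their surroundings were looked at after these values had been seen. Lrrc56 lies between them (141194157 to 141210055, plus strand), and its 3 Rx-Dicer values were also below its 3 control values (log2 fold change -0.48 ± 0.16 SE, DESeq2 adjusted p = 0.0893). Lmntd2, at 141209992 to 141214080 on the minus strand, was at -0.02 ± 0.32 (SE) with overlapping groups. Farther out, the log2 fold change was -0.02 for Ptdss2, 0.05 for Rnh1 and 0.02 for Phrf1, with overlapping groups in each, so that the low values did not extend over all genes of the 50000-base surroundings.

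The family's other genes Rassf6, Rassf9 and Rassf10 were also counted, and Rassf10 was the called gene among these 3. Rassf10, an N-terminal RASSF, had 8.55, 11.2 and 4.70 normalised counts in control and 58.3, 20.4 and 44.7 in Rx-Dicer samples, from 5 to 11 and 20 to 68 reads. All Rx-Dicer values were above all control values, with a log2 fold change of 2.35 ± 0.63 (SE) at a DESeq2 adjusted p of 0.0135. The lowest mean of a gene that passed the filter on low values was 12.9 normalised counts, above the control mean of 8.15, so that Rassf10 was tested only through its Rx-Dicer values and neither the call nor the separation of the groups is support for a difference. The order of the Rx-Dicer libraries (1, then 3, then 2) was that of the microglial marker sums, whose part was not tested. The adjusted p was 0.158 with edgeR and 0.10 without control 3, and no adjusted p was given without Rx-Dicer 1 or without Rx-Dicer 3. Rassf9 had 51.3, 37.7 and 44.2 normalised counts in control and 84.0, 75.4 and 25.7 in Rx-Dicer samples, where Rx-Dicer 3 was the lowest of all (log2 fold change 0.48 ± 0.46 SE, DESeq2 adjusted p = 0.789). Rassf6, at 4.29 to 15.2 normalised counts per library, fell under the filter of DESeq2 and received no adjusted p.

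The genes around the RAS and RASSF proteins were taken from lists. Together with the other RASSF genes, 101 genes were listed and 93 tested. Of these, 3 were called higher, Rassf10 included, and 1 lower, or 4.30% of those tested beside 2.93% of all genes, and their median log2 fold change was 0.13. No gene was called by DESeq2 among the 13 tested RAS relatives, the 6 exchange factors, the 12 GTPase-activating proteins and inhibitors, the 8 lipid-processing enzymes, the 17 RAF-MEK-ERK and RAL effectors or the 4 RASSF partner proteins. Unadjusted p-values under 0.05 were found for 0, 2, 3, 0, 3 and 0 of these genes, 8 of 60 in all beside 13.1% of all genes tested, and edgeR called none of them. The genes named from these lists are those with the highest mean normalised counts, which are not scaled by length. They were Rap1b (log2 fold change 0.16 ± 0.13 SE) and Rala (-0.06 ± 0.13) of the relatives, and Sos1 (0.20 ± 0.11) and Rasgrp1 (0.63 ± 0.25, DESeq2 adjusted p = 0.166) of the exchange factors. Among the inhibitors they were Spred1 (0.18 ± 0.14) and Dab2ip (0.14 ± 0.12). Golga7 (-0.06 ± 0.11) and Fnta (-0.04 ± 0.13), which serve RAS palmitoylation and farnesylation, were those of the lipid-processing enzymes. The RASSF partners Daxx and Mdm2 were at -0.08 ± 0.12 and 0.03 ± 0.11.

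Of 13 tested ERK response genes, 1 was called, Etv1, which fell, beside 1.18% of all genes tested that were called lower. This ETS transcription factor had 4966, 2174 and 2362 normalised counts in control and 1685, 1601 and 1479 in Rx-Dicer samples, a log2 fold change of -1.0 ± 0.25 (SE) at a DESeq2 adjusted p of 0.00794. The control group was spread widely through control 1. Its paralogs did not pass the threshold, with log2 fold changes of -0.45 for Etv4 (DESeq2 adjusted p = 0.203) and -0.50 for Etv5 (adjusted p = 0.101). Spry4 of the same list was higher, at 0.64 ± 0.25 (SE), and also not called (DESeq2 adjusted p = 0.163). The median log2 fold change of the list was -0.01. The genes of the list with the highest normalised counts, not scaled by length, were Ccnd1 (-0.09 ± 0.11 SE) and the ERK phosphatase gene Dusp6 (0.21 ± 0.20), neither of them called. Without control 1 the log2 fold change of Etv1 was -0.52 (adjusted p = 0.00349). The Etv1 call was lost without any 1 of the 3 Rx-Dicer samples, at adjusted p-values of 0.264 to 0.375. It was also lost with only the second file of each sample (DESeq2 adjusted p = 0.188) and with edgeR (adjusted p = 0.237), and kept with only the first file (DESeq2 adjusted p = 0.00679).

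Of 18 tested genes of the Hippo pathway, 2 were called higher, beside 1.75% of all genes tested, and none lower, and the median log2 fold change of the list was 0.17. In 8 of the 18 the Rx-Dicer values lay entirely above the control values, beside 8.55% of all genes tested, and in none entirely below, beside 10.7%. Lats2, a kinase that restrains YAP, had 635, 482 and 569 normalised counts in control and 696, 847 and 948 in Rx-Dicer samples (log2 fold change 0.56 ± 0.17 SE, DESeq2 adjusted p = 0.0461). Ccn2, a target gene of YAP, had 436, 273 and 570 in control and 764, 712 and 689 in Rx-Dicer samples (0.76 ± 0.23 SE, adjusted p = 0.0428). Both calls were near the threshold. Lats2 lost it in 11 of 18 alternatives and Ccn2 in 9 of 18, with no change of direction. Stk3 and Stk4, the kinases that bind the SARAH domain of Rassf3 and its relatives, were at log2 fold changes of 0.10 and 0.11 (adjusted p = 0.879 and 0.819), and Yap1 at 0.0050 (adjusted p = 0.995). Without Rx-Dicer 3 none of these 93 genes of all lists was called by DESeq2, and Rassf10 had no adjusted p in that setting.

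**Figure D5:**
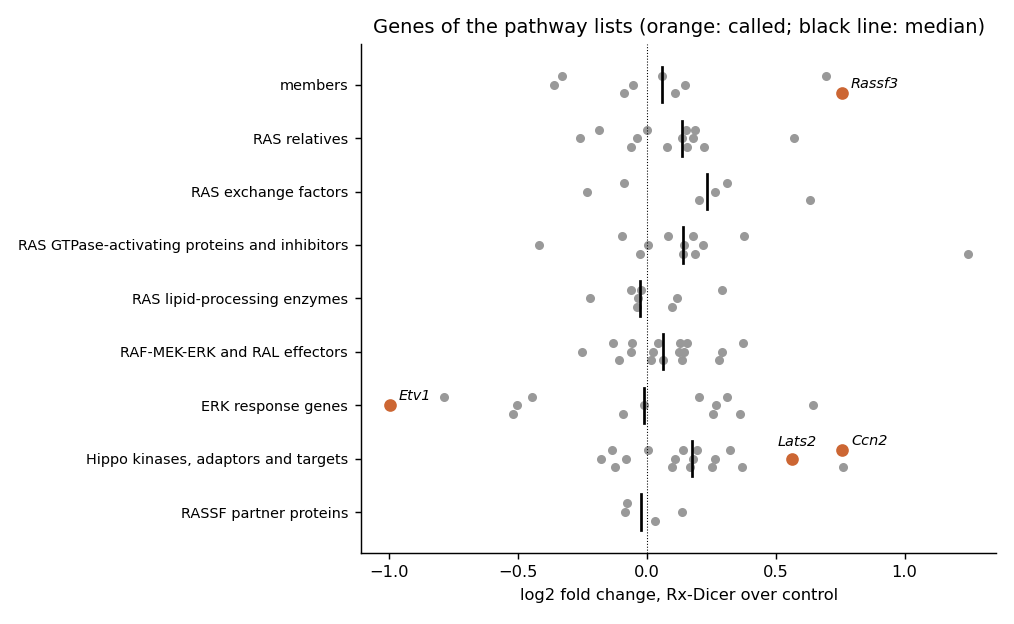
Log2 fold change (horizontal axis, Rx-Dicer over control) of tested genes, with 1 row for the 9 genes and 1 for each list of surrounding genes shown. Called genes are in orange and the list median is a black line. The list of other RASSF genes, with the called Rassf10, is left out. Etv1 stands at -1.0, Lats2 at 0.56 and Ccn2 at 0.76, and the medians run from -0.03 to 0.23.

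The genes whose pattern was most like that of Rassf3 across the 6 libraries, among 12895 genes with a mean of at least 100 normalised counts, were Plekhf1 (Pearson r = 0.999), Pabpc4l (r = 0.998) and Mov10 (r = 0.996). These coefficients are a description over 6 libraries and were picked as the highest of many. Mov10, which encodes an RNA helicase, was called higher (log2 fold change 0.59, DESeq2 adjusted p = 0.0142), whereas Plekhf1 (0.27, adjusted p = 0.749) and Pabpc4l (0.35, adjusted p = 0.318) were not.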

How the data were processed

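Raw counts of reads per gene were deposited, in 2 files per sample. Per the labels and methods, the authors trimmed directional 100 bp paired reads with Trim Galore, aligned them to GRCm38.p6 with HISAT2 and counted them with HTSeq (union mode, reverse strand). Reads on several genes were counted for none. Both files of a sample differed little beyond counting noise (chi-square per degree of freedom 1.13 to 1.52, against 22.5 to 32.6 between samples of a group) and were summed. Genotypes were compared with the DESeq2 1.42.0 Wald test (R 4.3.3), the study's tool, with Benjamini-Hochberg adjustment over all genes and no covariate. edgeR 4.0.16 was the first of 18 alternatives. Both were tested on simulated data. Genes were matched to GENCODE M21, and exon lengths are of merged exons. The named genes were the 9 genes, the remaining RASSF genes, called genes of the lists or else the 2 with the highest mean counts, and the 3 genes most like each called member. Others (Pax6, Etv4, Etv5, Spry4, Stk3, Stk4, Yap1, Csf1r, Cx3cr1, Nkx2-1 and chromosome 7 neighbours) were chosen after their values were seen. Members and lists were chosen with earlier results of these data known. A library's floor of 3 counts was 0.0620 to 0.0870 CPM. Floors cover counting error only. The log2 correlations used a pseudocount of 1. The values of some genes of the lists are not reported here, and these genes stay in the counts.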

Additional observations from a re-analysis of the deposited data

How the results depend on the processing

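Rassf3 kept its direction in all 18 alternatives and its call in 17. The exception was edgeR's quasi-likelihood test, under which 0 of the 9 members were called, higher or lower, and 0 pathway genes (3 members had an unadjusted p under 0.05). Pathway genes called, 4 in the main setting, were 2 without independent filtering, 7 at an adjusted p under 0.1, 2 with the second file only, and 0 to 7 when a sample was left out. Genes called among all tested, 502 in the main setting, were 8 with edgeR, 322 without independent filtering, and 285 to 637 when a sample was left out. The number of members with separate groups, 3 in the main setting, was 3 to 5 when a sample was left out. Both of these counts were recomputed under alternatives added after the data had been seen. Groups separate more easily when a library is left out. The share of all genes with separate groups was not computed for these settings. Signs turned for members near 0: the log2 fold change of Nras was -0.049 with the length and GC correction, and those of Rassf2 and Rassf4 turned positive without Rx-Dicer 3, within ranges of -0.098 to 0.018 and -0.15 to 0.010 when a sample was left out. Replicate numbers come from the titles and the genotypes are different embryos. The paper compared mutants with control littermates, and the titles do not say which samples shared a litter. Deviations of same-numbered samples correlated at 0.27, -0.063 and -0.29. At 3 samples per group these values cannot decide whether the numbers pair the samples. With the replicate number as a block, 314 genes were called (295 with the length and GC correction as well), Rassf3 stayed called (0.77, adjusted p = 0.00832), Lats2 and Rassf10 were no longer called (adjusted p = 0.156 and 0.0930), and with the correction as well Nras was at -0.050. The causes were not tested. Rassf5 and Rassf10 had no adjusted p in 5 alternatives each. Genes with few reads, such as Rassf5, allow no firm statement at this depth.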
